A study of Mus musculus with 66 samples.

Results

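SR proteins and heterogeneous nuclear ribonucleoproteins (hnRNPs) were examined in a 24 h transcriptome of the mouse ventral striatum. The members were every row of the gene expression table whose symbol was Srsf followed by a number or began with Hnrnp, and 29 of 24138 listed genes met this rule, 11 of them Srsf and 18 Hnrnp. Entries that joined Hnrnpa1 or Hnrnpa3 to a neighbouring predicted gene did not match and were left out, as their mean levels (11.9 and 7.55 FPKM, fragments mapped to a transcript, scaled to its length and to the depth of the library) cannot be divided between the joined genes. RNA was taken from frozen ventral striatum punches of male mice on a C57BL/6J background, aged 3 to 5 months and kept on a 12 h light, 12 h dark cycle. Wild-type (WT) mice were compared with iMSN-D2RKO mice, in which a floxed dopamine D2 receptor gene is recombined by a Cre driven by the D1 receptor promoter, so that the receptor is lost from indirect-pathway medium spiny neurons whose precursors express both receptors. Each genotype received saline or cocaine (20 mg/kg, intraperitoneal) at zeitgeber time (ZT) 3, where ZT0 is lights on and ZT12 lights off, and groups were collected at ZT7, ZT11, ZT15, ZT19 and ZT23. A group collected at ZT3 in each genotype served as the starting point of both treatments. There were 22 groups of 3 libraries, 66 in all. Nothing in the labels says that the 3 came from separate mice, so p-values measure the spread between libraries. Tissue punches mix cell types, and fewer cells of a type cannot be told apart from less RNA per cell.

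SR proteins carry RNA recognition motifs and a tail rich in arginine and serine. They bind exonic enhancers, recruit the spliceosome to nearby splice sites and are switched by the SRPK and CLK kinases that phosphorylate the tail. The hnRNPs coat nascent transcripts, and many of them act against SR proteins by silencing exons, while several also carry mRNA to dendrites or set its stability. Members of both families limit their own level through exons that lead the transcript to nonsense-mediated decay. In brain, the balance between both families shapes the isoforms of receptors, channels and synaptic proteins.

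All 29 genes were expressed at 1 FPKM or more in each of the 66 libraries. The mean over libraries ran from 8.56 FPKM for Srsf12, an SR-like protein, to 148 FPKM for Hnrnpa2b1, which binds transport signals in neuronal and glial mRNAs, a 17.3-fold range. The median member stood at 54.5 FPKM, beside 9.64 FPKM for the 14643 genes that reached 1 FPKM in a library. After Hnrnpa2b1 came Hnrnpu, a nuclear matrix and chromatin-associated protein, at 137 FPKM and Hnrnph1, which binds G-rich elements, at 123 FPKM. Srsf2, which recognises exonic enhancers, was the highest SR gene at 84.5 FPKM, next to Hnrnpl, a binder of CA-rich elements, at 84.3 FPKM. The lowest were Hnrnpr, a partner of the survival motor neuron protein, at 14.2 FPKM, then Hnrnpf, a relative of Hnrnph1, at 8.58 FPKM and Srsf12. The order is of levels per length, and neighbours in it need not differ beyond their spread. At ZT3 Hnrnpa2b1 had 93.3 ± 8.38 FPKM in WT and 95.5 ± 12.6 FPKM in iMSN-D2RKO (SD, n = 3 each). Hnrnpu had 97.6 ± 7.91 and 101 ± 10.2 FPKM in the same groups, so the leading pair lay within their SDs there. The plot of levels gives all libraries.

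**Figure D1:**
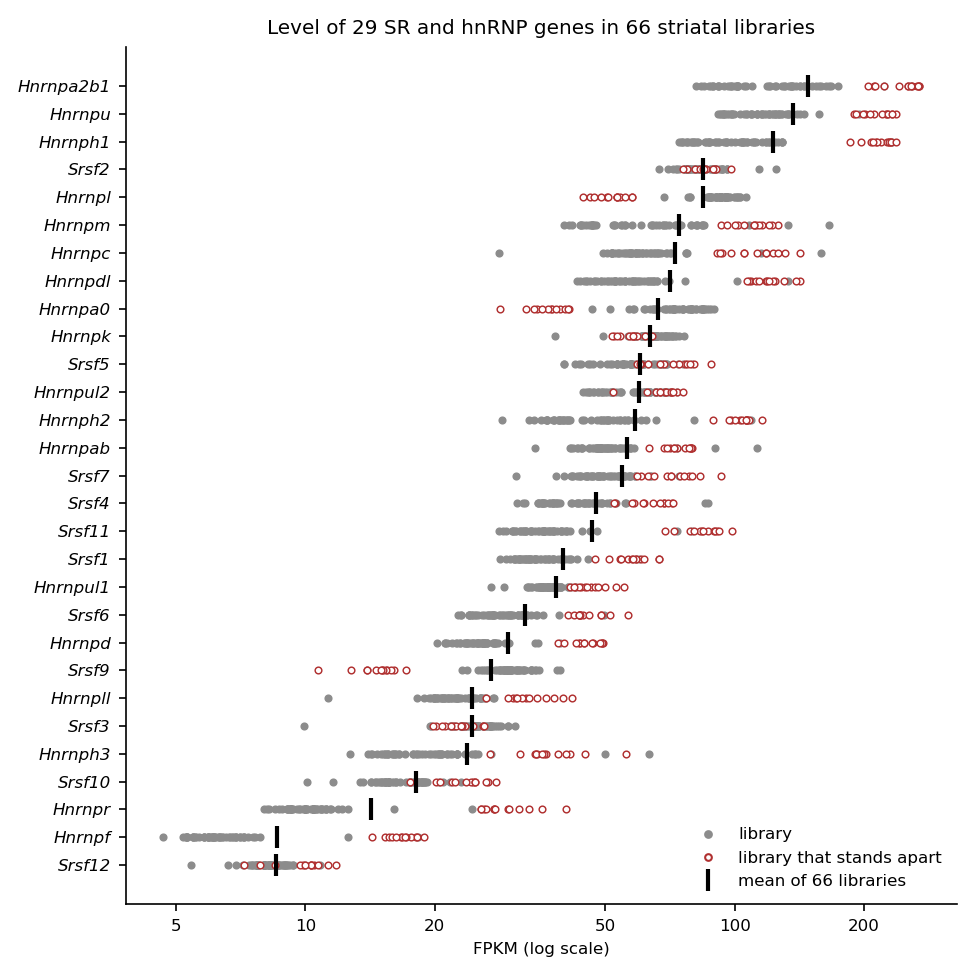
Level of each of the 29 genes in FPKM (log axis) in 66 libraries, 1 point per library, ordered by the mean (black bar), with the 13 libraries that stand apart drawn open in red. The open points lie above most others for Hnrnpr, Hnrnpf and Srsf11 and below them for Srsf9, Hnrnpl and Hnrnpa0.

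Before any comparison, 13 of the 66 libraries stood apart on the leading axis of within-group variation, which was built from 9555 genes that are not members and held 43.5% of that variation. Their scores were 51.5 to 63.4, beside -28.5 to 22.3 in the other 53. They were unevenly spread over the day, with 12 among 36 dark-hour libraries and 1 among 30 light-hour libraries, and 6 of the 12 at ZT19. One library, saline iMSN-D2RKO replicate 1 at ZT7, had a total of 690048 FPKM, beside 364078 to 465297 in the rest. The D2 receptor transcript did not separate the genotypes, with 99.1 to 240 FPKM (median 121) in WT and 78 to 375 FPKM (median 107) in iMSN-D2RKO libraries that did not stand apart. The spiny neuron markers were present throughout, summing to 2741 to 15853 FPKM over 12 genes, and choroid plexus and ependymal markers to 3.66 to 1143 FPKM over 5.

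The members differed between the libraries that stood apart and the others of the same 10 groups. Hnrnpr was 2.51-fold higher in them, by 1.33 on the log2(FPKM + 1) scale, and was higher in 10 of 10 groups. Hnrnpf (1.05), Srsf11 (1.04) and Hnrnpdl (0.96) followed, each higher in 9 or 10 groups. Srsf9, by contrast, had a difference of -1.01, Hnrnpa0 of -0.83 and Hnrnpl of -0.78, and these were lower in 10 of 10 groups, as was Hnrnpk (-0.25), a binder of C-rich RNA. Srsf2 (-0.01) lay between. In all, 23 members were higher and 6 lower, with a median of 0.44 beside 0.05 for all genes, and 12 members were higher by over 0.5, where 19.3% of all genes were. No test is given, because the libraries were chosen by their values. The 13 had a relative depth, estimated from the values, of 0.66 to 0.75 (median 0.691), beside 0.499 to 1.71 (median 1.03) in the others. Astrocyte markers summed to 530 to 622 FPKM over 6 genes in the 13 (median 586), beside medians of 464 FPKM in the other light-hour and 455 FPKM in the other dark-hour libraries. Oligodendrocyte markers summed to a median of 2441 FPKM over 7 genes in the 13, beside 3166 and 3413 FPKM. The part of depth and of cell makeup in the member differences was not tested.

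The promoters of these genes are shown as a description, and no link between their motifs and the levels was tested. RefSeq (GRCm38.p6) listed 39 promoter windows of 300 bases for 27 members, all but Hnrnpll and Hnrnpul2. They held a median of 68.3% G and C and 31 CpG, beside 52.7% and 7 over 32851 windows of all genes, and 37 of 39 had 20 CpG or more. The E-box CACGTG, bound by the core clock factors CLOCK and BMAL1, was found in 4 of 39 (10.3%, Hnrnpd, Hnrnpf, Hnrnph2 and Hnrnpm), beside 7.15% of all windows and 11.6% of 8701 windows with as many CpG. The D-box TTATGTAA was found in 0 of 39, where 0.938% of all windows held it. The core TGACG of the cAMP response element was in 22 of 39 (56.4%), beside 20.8% of all and 36.3% of CpG-rich windows. The GC box GGGCGG was in 32 of 39 (82.1%), close to the 80.9% of CpG-rich windows, and CCAAT in 19 of 39 (48.7%), beside 32.9%. Letters were read on both strands, windows of the same gene overlap, and a match is not a bound site. The 150 bases before an annotated start follow for a gene called in several comparisons (Hnrnpm), an SR gene called in several (Srsf6), the member called from ZT3 to ZT7 with all libraries (Srsf5) and a gene that ran the opposite way (Hnrnpa0). Capitals mark TGACG and GGGCGG or their complements.
Hnrnpm, chr17:33685459-33685608, minus strand: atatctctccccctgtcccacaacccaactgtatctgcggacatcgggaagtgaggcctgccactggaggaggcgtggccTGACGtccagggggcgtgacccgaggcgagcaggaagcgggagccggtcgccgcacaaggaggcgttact
Srsf6, chr2:162931358-162931507, plus strand: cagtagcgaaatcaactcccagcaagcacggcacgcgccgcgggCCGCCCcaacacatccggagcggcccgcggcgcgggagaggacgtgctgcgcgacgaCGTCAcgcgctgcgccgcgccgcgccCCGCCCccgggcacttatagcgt
Srsf5, chr12:80945349-80945498, plus strand: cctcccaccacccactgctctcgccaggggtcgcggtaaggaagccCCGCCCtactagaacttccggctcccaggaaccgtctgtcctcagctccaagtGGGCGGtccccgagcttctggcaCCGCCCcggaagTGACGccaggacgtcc
Hnrnpa0, chr13:58128557-58128706, minus strand: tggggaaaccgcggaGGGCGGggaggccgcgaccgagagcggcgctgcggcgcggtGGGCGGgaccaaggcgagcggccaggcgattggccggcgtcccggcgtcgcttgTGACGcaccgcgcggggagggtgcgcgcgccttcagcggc

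The first comparison asked whether the members differed between dark hours (ZT15, ZT19 and ZT23) and light hours (ZT3, ZT7 and ZT11) within each genotype and treatment. With all libraries, 7 of 29 members were higher in the dark in saline WT mice, where 2.01% of all genes were, and none was lower (0.744% of all genes, 2.75% in either direction). The 7 were Hnrnpm, Hnrnpa2b1, Hnrnph1, Hnrnpu, Hnrnpul2, Srsf6 and Srsf4. In cocaine WT mice 11 were higher (9.9% of all genes) and Hnrnpa0 lower (3.79% of all genes). In saline iMSN-D2RKO mice 15 were higher (17.4% of all genes), and Hnrnpa0 and Hnrnpl were lower (9.88% of all genes). In cocaine iMSN-D2RKO mice limma called 0 members at an adjusted p under 0.05, with 10 at an unadjusted p under 0.05 and a smallest adjusted p of 0.0592 (0.942% of all genes were called, 0.615% higher and 0.328% lower). There 1826 of 14643 genes had an unadjusted p under 0.05. The median member difference on the log2 scale was 0.29, 0.30, 0.34 and 0.22 in these 4 series, beside 0.05, 0.06, 0.03 and 0.02 for all genes.

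Hnrnpm, which binds GU-rich intronic elements and is linked to exon skipping, had the smallest p in saline WT mice. Its 9 light-hour libraries had 41.7 to 64.3 FPKM. At ZT15 the level was 63.7, 52.6 and 54.6 FPKM, at ZT19 it was 112, 102 and 78.9 FPKM, and at ZT23 it was 105, 70.2 and 72.5 FPKM. The ZT19 and ZT23 libraries thus all lay above the light hours, whereas ZT15 overlapped them. The levels of 112, 102 and 105 FPKM come from libraries that stand apart, and 78.9, 70.2 and 72.5 FPKM from libraries that do not. Dark exceeded light by 0.60 ± 0.14 (log2, SE; adjusted p = 0.0236), 1.52-fold, and by 0.72 ± 0.14 in cocaine WT mice (adjusted p = 0.00198) and 0.55 ± 0.14 in saline iMSN-D2RKO mice (adjusted p = 0.00973). In cocaine iMSN-D2RKO mice the difference was 0.51. Hnrnpa2b1 had 97.4, 81.3 and 120 FPKM at ZT7 in saline WT mice and 223, 211 and 135 FPKM at ZT19, where the libraries that stand apart are the higher pair. Its dark to light difference was 0.66 ± 0.16 (adjusted p = 0.0254).

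Hnrnph1 followed the same pattern at 0.61 ± 0.17 in saline WT mice (adjusted p = 0.0458), and its level of 219, 197 and 111 FPKM at ZT19 compared with 90.6, 75.4 and 86.5 FPKM at ZT3. The levels of 219 and 197 FPKM are from libraries that stand apart. The other members of the F/H group, which share binding to G-runs, had 0.63 (Hnrnph2), 0.57 (Hnrnph3) and 0.71 (Hnrnpf) in cocaine WT mice, all past the threshold. Among the SR genes, Srsf6, a regulator of alternative exons in neuronal transcripts, rose in 3 series by 0.40, 0.50 and 0.42. Srsf4, a close relative, rose in the same 3 by 0.39, 0.60 and 0.31. Srsf1, the founding SR protein, passed in saline iMSN-D2RKO mice (0.46, adjusted p = 0.0117), as did Srsf7 (0.39) and Srsf10 (0.43), an SR-like protein that represses splicing when dephosphorylated. Srsf2 differed by -0.01 to 0.06 over the 4 series, and Srsf3, a small SR protein that also exports mRNA, by -0.18 to -0.03, without a call.

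Hnrnpa0, a binder of AU-rich elements in inflammatory transcripts, ran the other way. In cocaine WT mice it had 89.5, 77.9 and 84.8 FPKM at ZT7 and 28.4, 56.6 and 34.6 FPKM at ZT19, with no overlap. The levels of 28.4 and 34.6 FPKM come from libraries that stand apart, in which Hnrnpa0 was lower in each group compared. Light exceeded dark in cocaine WT mice, with a difference of -0.63 ± 0.16 (adjusted p = 0.012), and in saline iMSN-D2RKO mice of -0.58 (adjusted p = 0.0147). Hnrnpl differed by -0.40 in the latter series (adjusted p = 0.0406).

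Leaving out the 13 libraries changed these counts. In saline WT and saline iMSN-D2RKO mice 0 members then passed in limma, with 10 and 10 at an unadjusted p under 0.05. Of 14438 genes, 15 and 31 passed in these series, and 1595 and 1627 had an unadjusted p under 0.05. In cocaine WT mice 13 members were higher (13.7% of all genes), and Hnrnpa0 and Hnrnpl were lower (4.35%). In cocaine iMSN-D2RKO mice Hnrnph1 and Hnrnpa2b1 were higher (1.24%). The cocaine WT count then rested on a lone ZT19 library, replicate 2, whose score of 22.3 was the highest of those kept. Leaving out ZT19 as well gave 0 members in all 4 series. In that setting 30, 1, 6 and 23 of 14379 genes were called in saline WT, cocaine WT, saline iMSN-D2RKO and cocaine iMSN-D2RKO mice. Without the 13 and the library of 690048 FPKM, 4 members were higher in saline WT (0.85% of all genes) and 3 in saline iMSN-D2RKO mice (1.77%). The median member difference was 0.11, 0.23, 0.06 and 0.15 in the 4 series without the 13. For Hnrnpm in saline WT mice the difference was then 0.45 (95% interval 0.16 to 0.73) and for Hnrnpa2b1 0.40 (0.17 to 0.63). With all libraries, oligodendrocyte markers had a median difference of -0.55 in saline WT mice, 0 of 7 past the threshold, and -0.56 in saline iMSN-D2RKO mice, 4 of 7 lower. Summed over the 7 genes they ran from 2176 to 6047 FPKM in light and from 1880 to 3939 FPKM in dark libraries, and their part in the result was not tested.

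**Figure D2:**
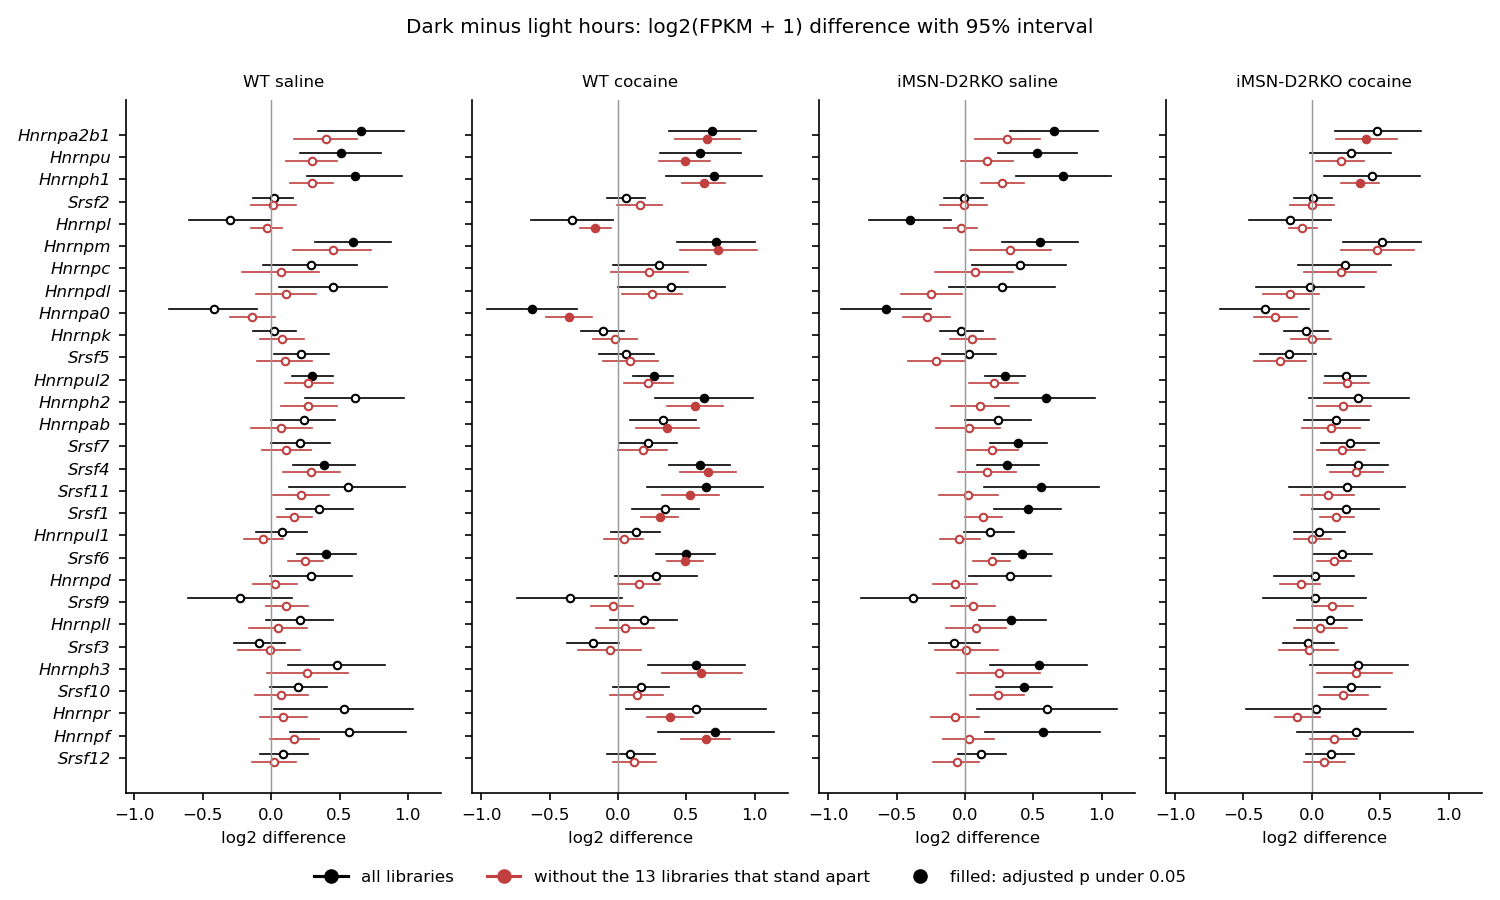
Dark minus light difference in log2(FPKM + 1) of 29 genes (rows) in 4 series (panels), with 95% intervals, for all libraries (black) and without the 13 that stand apart (red); filled points have an adjusted p under 0.05. Hnrnpm, Hnrnpa2b1 and Hnrnph1 lie to the right of 0 in each panel and Hnrnpa0 to the left.

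Rhythmicity over 24 h was then tested with JTK_CYCLE at p under 0.01, the cutoff the study used. In saline WT mice 11 of 29 members were called, where 9.81% of all genes were, and in cocaine WT mice 7 (7.61%). The study, with this test on these libraries, had reported RNA splicing among the terms enriched in WT transcripts rhythmic only with saline. The saline WT count is therefore not independent of that report. In iMSN-D2RKO mice the counts were 0 with saline (2.58%), with 3 members at p under 0.05 (11.3% of all genes), and 1 with cocaine (1.1%). Srsf1 had the smallest p in saline WT mice (exact JTK_CYCLE p = 0.000542, peak ZT19), followed by Hnrnph1 (p = 0.00143 by the same exact test, peak ZT21). Hnrnph3, Hnrnpf, Srsf7, Hnrnpul2, Hnrnpm, Srsf11, Hnrnpa2b1, Hnrnpu and Srsf2 were the others, with peaks from ZT17 to ZT23. In cocaine WT mice Srsf4 led (exact p = 0.00019, peak ZT21) and Hnrnpa0 peaked at ZT9 (exact p = 0.000755). Hnrnph3, Hnrnpf and Hnrnpm were called in both WT series. In iMSN-D2RKO mice the single call was Hnrnpdl with cocaine (exact p = 0.00507, peak ZT9). A cosinor F test in limma called 15 members in saline WT, 13 in cocaine WT and 0 in either iMSN-D2RKO series, with 9 (saline) and 1 (cocaine) at an unadjusted p under 0.05 in the latter (14.1%, 14.6%, 0.00707% and 0% of all genes were called). In iMSN-D2RKO mice 3399 of 14135 genes with saline and 568 of 13944 with cocaine had an unadjusted p under 0.05. The cosinor test called 0 members in limma in all 4 series without the 13 libraries, with 14, 9, 0 and 5 at an unadjusted p under 0.05 in WT saline, WT cocaine, iMSN-D2RKO saline and iMSN-D2RKO cocaine (1.06%, 0%, 0% and 0.116% of all genes were called). Genes with an unadjusted p under 0.05 were 3422 of 13636, 1716 of 14105, 456 of 13943 and 1661 of 13742 in the same order. Direct tests of the rhythm between genotypes and between treatments, 4 in all, gave 0 members in limma, with 0, 0, 0 and 1 at an unadjusted p under 0.05, so a difference in rhythm between the groups was not shown. With adjustment over all genes tested, 2 members stayed under 0.05 in saline WT mice (Srsf1, adjusted p = 0.0288, and Hnrnph1, adjusted p = 0.0457) and 1 in cocaine WT mice (Srsf4, adjusted p = 0.0348). Without the 13 libraries the counts were 3, 0, 1 and 1 (6.43%, 2.38%, 1.19% and 1.92% of all genes).

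Looking at single steps showed where in the day the levels changed. The means of consecutive time points, averaged over genotypes and treatments, were compared in limma over all 66 libraries, a comparison added after the values were seen. From ZT23 to ZT3, 15 of 29 members fell, where 12.4% of all genes did, and Hnrnpa0 rose (5.7% of all genes rose). Without the 13 libraries 9 fell (7.85% of all genes) and Hnrnpa0 still rose, by 0.25 (adjusted p = 0.0375). Hnrnpa2b1 had a lowest, median and highest level of 134, 159 and 268 FPKM over 12 libraries at ZT23 and of 83.6, 93.5 and 110 FPKM over 6 at ZT3. The groups did not overlap, and the step was -0.92 ± 0.17 (adjusted p = 0.000347), or -0.65 without the 13 (adjusted p = 0.000587). Hnrnpm had 68.2, 82.7 and 120 FPKM at ZT23 and 41.2, 49.5 and 65.6 FPKM at ZT3, again without overlap, with a step of -0.80 ± 0.15 (adjusted p = 0.000429). Srsf6 had 28.7, 32.3 and 48.9 FPKM at ZT23 and 22.7, 23.6 and 26.8 FPKM at ZT3, with a step of -0.56 ± 0.11 (adjusted p = 0.00101). Hnrnpul2, a relative of hnRNP U with a role at DNA breaks, had a step of -0.42 ± 0.08 (adjusted p = 0.000438). ZT3 was the hour of injection and the ZT23 mice were collected after it, so clock time and injection cannot be told apart in this step. The punches also differed in content. Choroid plexus and ependymal markers had a median sum of 103 FPKM in WT and 107 FPKM in iMSN-D2RKO libraries at ZT3. At ZT19 the medians were 13 FPKM (4.11 to 39.4) and 14.6 FPKM (4.96 to 494). The part of tissue content in the step was not tested.

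From ZT3 to ZT7 Srsf5, an SR gene that follows feeding and insulin in other tissues, was the only member past the threshold with all libraries (1 of 29, with 1.11% of all genes higher). In WT mice it had 40, 43.3 and 46 FPKM at ZT3, against 58.5, 60.7 and 68.1 FPKM at ZT7 with saline and 61.6, 69.6 and 59.7 FPKM with cocaine, without overlap. In iMSN-D2RKO mice it had 55.1, 54.4 and 54.9 FPKM at ZT3, against 51.3, 60.4 and 73.8 FPKM with saline and 79.7, 78.8 and 75.8 FPKM with cocaine, where saline overlapped ZT3. The step was 0.43 ± 0.11 (adjusted p = 0.0264). Without the 13 libraries 8 members rose (4.6% of all genes), adding Srsf6, Srsf11, Hnrnpdl, Hnrnpa2b1, Hnrnph1, Hnrnph2 and Hnrnpm. Here too injection cannot be told apart from time. Choroid plexus and ependymal markers summed to 69.4 to 121 FPKM in WT and 61.4 to 178 FPKM in iMSN-D2RKO libraries at ZT3. At ZT7 they summed to 3.86 to 19.1 and 4.09 to 13.8 FPKM, without overlap. The part of tissue content in this step was not tested.

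Between injected groups, Hnrnpm fell from ZT7 to ZT11 by 0.54 on the log2 scale (adjusted p = 0.0178) and Hnrnph3 fell by 0.53 (adjusted p = 0.0493), where 1.67% of all genes fell. At this step 7 members fell without the 13 libraries (3.87% of all genes), adding Hnrnph1 (-0.27), Srsf6 (-0.20), Hnrnpa2b1 (-0.31), Hnrnph2 (-0.25) and Srsf11 (-0.25). Without the library of 690048 FPKM, which is a ZT7 library, 0 members passed in limma (0.268% of all genes fell), with 7 at an unadjusted p under 0.05 (1792 of 14578 genes) and a step of -0.45 for Hnrnpm (adjusted p = 0.0583). Hnrnpm rose again from ZT11 to ZT15 by 0.54 (adjusted p = 0.00574), together with Srsf4, Hnrnpul2 and Srsf6 (2.6% of all genes). There 7 rose without the 13 libraries (3.77%), adding Hnrnph1, Hnrnpu and Srsf1, and Hnrnpa0 and Hnrnpdl fell (-0.29 and -0.28, where 1.85% of all genes fell). Over 12 libraries at ZT11 Hnrnpm ran from 40 to 60.6 FPKM with a median of 46.6, and at ZT15 from 45.9 to 122 FPKM with a median of 66.7. From ZT15 to ZT19 11 members rose (14.4% of all genes), 11 also without the 13 libraries (7.34%), led by Hnrnph2 (0.64, adjusted p = 0.00624) and Hnrnpa2b1 (0.54, adjusted p = 0.00723). At ZT19 that comparison without the 13 rests on 6 libraries, with saline WT, cocaine WT and saline iMSN-D2RKO mice given by 1 each and cocaine iMSN-D2RKO mice by 3. From ZT19 to ZT23 0 members passed in limma, with 0 at an unadjusted p under 0.05, and 0% of all genes were called.

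**Figure D3:**
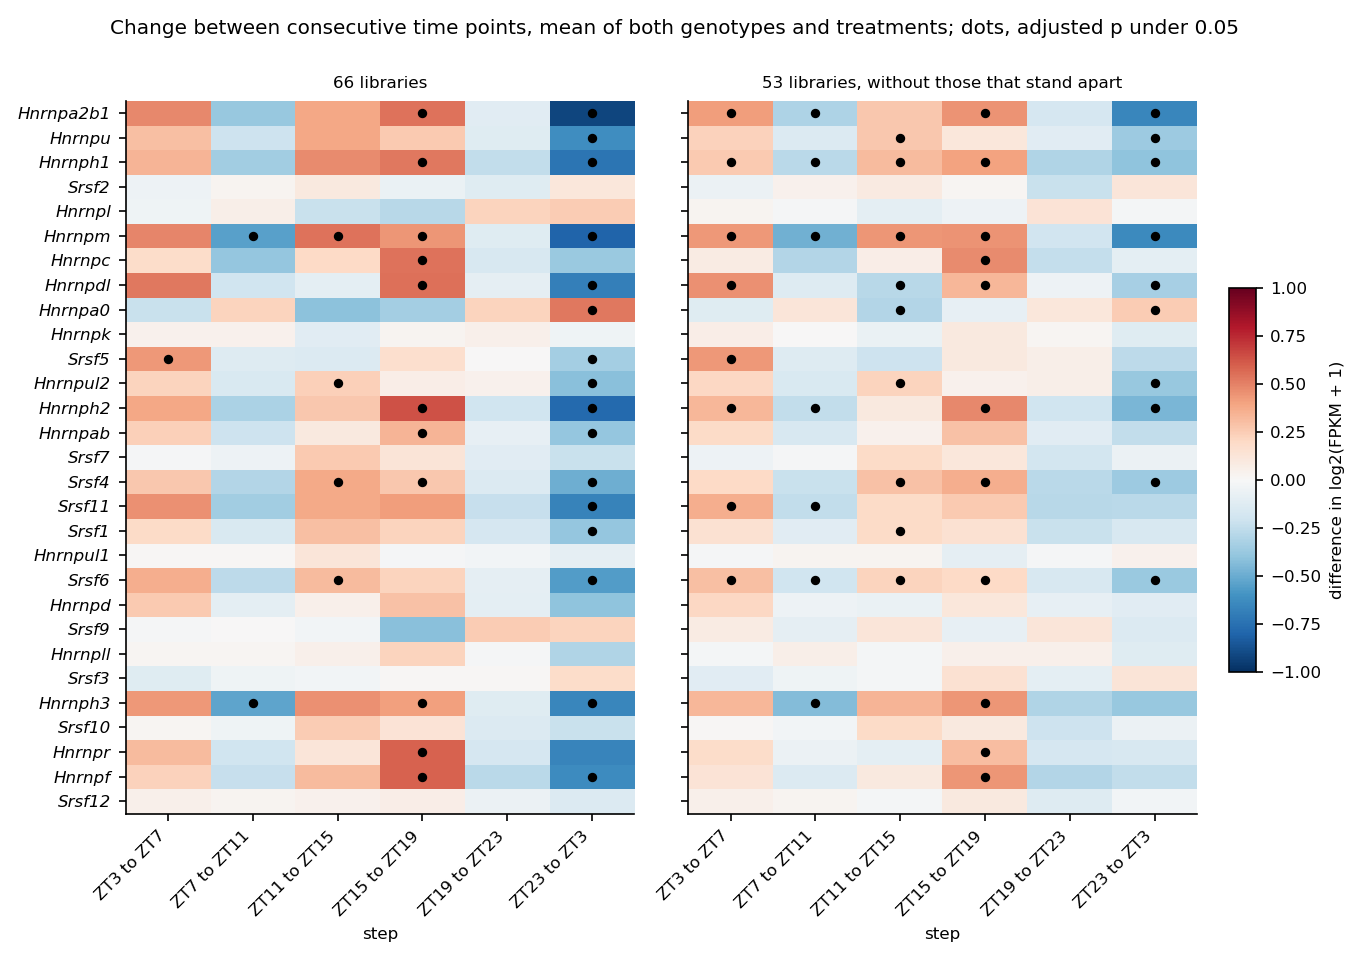
Difference in log2(FPKM + 1) between consecutive time points (columns) for 29 genes (rows), averaged over genotypes and treatments, with 66 libraries (left) and 53 (right); red is higher at the later time, blue lower, and dots mark an adjusted p under 0.05. The ZT23 to ZT3 column holds 16 dots on the left and 10 on the right.

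The levels of 6 members by library are shown in the plot of time courses. In iMSN-D2RKO mice several members stood above WT at ZT7 and ZT15, and this was tested after it was seen, with treatments averaged. With all libraries, 6 of 29 members were higher in iMSN-D2RKO at ZT7 (4.23% of all genes) and 6 at ZT15 (4.59%). At ZT3, ZT11, ZT19 and ZT23 limma called 0 members, with 0, 0, 5 and 0 at an unadjusted p under 0.05 (0.041%, 0.00683%, 0.0341% and 0.0341% of all genes were called). At ZT19, 1947 of 14643 genes had an unadjusted p under 0.05. The median member difference was 0.36 at ZT7 and 0.36 at ZT15, beside 0.03 and 0.03 for all genes, and 0.00 at ZT11. At ZT7 and ZT15 every library that stands apart was iMSN-D2RKO, and 23 of 29 members were higher in such libraries. Leaving them out kept 6 WT and 5 iMSN-D2RKO libraries at ZT7, and 6 and 4 at ZT15. The median member difference was then 0.26 at ZT7 and 0.15 at ZT15, beside 0.02 and 0.01 for all genes. Whether the genotype difference itself changes between time points was not tested.

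**Figure D4:**
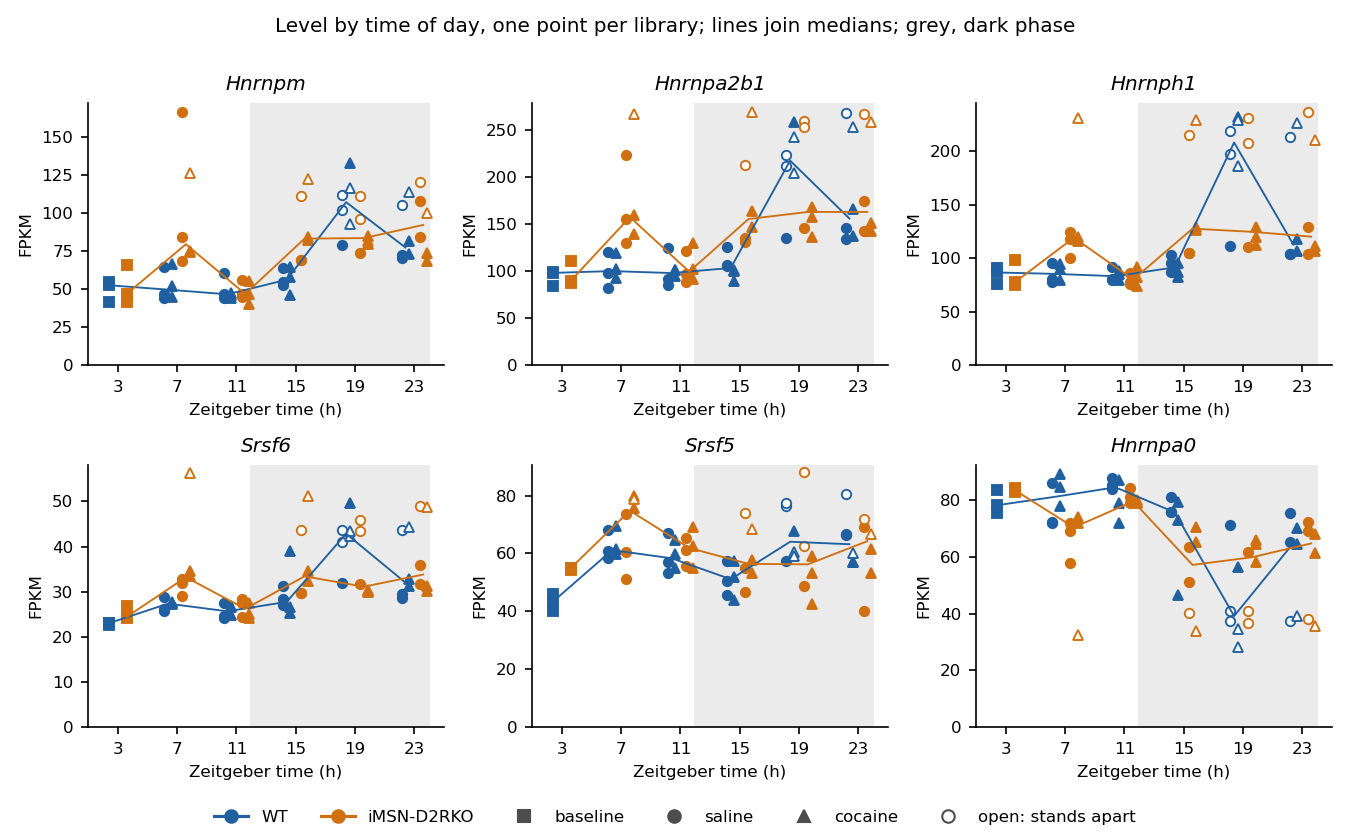
FPKM of Hnrnpm, Hnrnpa2b1, Hnrnph1, Srsf6, Srsf5 and Hnrnpa0 against zeitgeber time, 1 point per library, with WT (blue) drawn left and iMSN-D2RKO (orange) right of each time, libraries that stand apart open, lines through genotype medians and dark hours in grey. The orange points of Hnrnpm at ZT7, from 68.1 to 166 FPKM, all lie above the blue ones, from 43.9 to 66.5 FPKM.

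At ZT7 Hnrnpm had 46.9, 43.9 and 64.3 FPKM in saline WT and 52.1, 66.5 and 45 FPKM in cocaine WT mice. In iMSN-D2RKO mice it had 166, 68.1 and 83.9 FPKM with saline and 74.5, 126 and 74.8 FPKM with cocaine. The level of 166 FPKM comes from the library with the highest total, and that of 126 FPKM from a library that stands apart. No iMSN-D2RKO library overlapped WT, and the difference was 0.82 ± 0.17 (adjusted p = 0.00582), 1.77-fold. Hnrnpa2b1 had 97.4, 81.3 and 120 FPKM in saline WT, 102, 119 and 92 FPKM in cocaine WT, 223, 129 and 155 FPKM in saline iMSN-D2RKO and 159, 266 and 139 FPKM in cocaine iMSN-D2RKO mice. The levels of 223 and 266 FPKM come from the same libraries, in that order. Again the genotypes did not overlap, with a difference of 0.77 ± 0.19 (adjusted p = 0.0157). Hnrnph3 (0.78), Srsf4 (0.50), Hnrnpab (0.48) and Hnrnpul2 (0.32) were the other calls. Between the 6 libraries of each genotype, 7 of 29 members were higher without overlap, where 2.6% of all genes were, namely Hnrnpm, Hnrnpa2b1, Hnrnph1, Hnrnph2, Hnrnpab, Hnrnpul2 and Srsf6.

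At ZT15 Hnrnpm had 63.7, 52.6 and 54.6 FPKM in saline WT, 57.5, 45.9 and 64.6 FPKM in cocaine WT, 68.8, 111 and 69.2 FPKM in saline iMSN-D2RKO and 81.9, 84.2 and 122 FPKM in cocaine iMSN-D2RKO mice. The levels of 111 and 122 FPKM come from libraries that stand apart. The genotypes did not overlap, and the difference was 0.63 ± 0.17 (adjusted p = 0.0246). Hnrnph2 had the largest called difference, 0.82 ± 0.22 (adjusted p = 0.0236), with 28.7 to 48.8 FPKM in 6 WT and 47.7 to 107 FPKM in 6 iMSN-D2RKO libraries. The level of 107 FPKM is also from a library that stands apart. Hnrnpa2b1 (0.71), Srsf7 (0.42), Srsf10 (0.40) and Hnrnpul2 (0.30) also passed. The lowest WT library of Hnrnph2, Srsf7 (30.9 FPKM, WT median 53.7) and Srsf10 (10.1 FPKM, WT median 17.8) was cocaine replicate 3. It had the lowest relative depth (0.499) and the lowest total (364078 FPKM) of the 66 libraries. With a score of 20.3 it is kept when the 13 are left out, and its part in these calls was not tested. Without overlap, 5 of 29 were higher (4.43% of all genes), namely Hnrnpm, Hnrnpa2b1, Hnrnph1, Hnrnph3 and Hnrnpf. At ZT3, with 3 libraries a genotype, 4 of 29 were higher without overlap, where 7.62% of all genes were. At ZT11, ZT19 and ZT23 the count was 0 (0.184%, 0.0273% and 0.198% of all genes). Without the 13 libraries 4 were lower in iMSN-D2RKO without overlap at ZT19, where 9% of all genes were, with 2 WT and 4 iMSN-D2RKO libraries.

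These counts moved with the libraries used. Without the 13 that stand apart, 15 members passed at ZT7 (6.9% of all genes) and 2, Hnrnph2 and Hnrnph1, at ZT15 (1.43%), while 4 were lower in iMSN-D2RKO at ZT19 (1.14%), where 2 WT libraries were left. Without the single library of 690048 FPKM, a saline iMSN-D2RKO library at ZT7, 0 passed at ZT7 in limma, with 10 at an unadjusted p under 0.05 (2014 of 14578 genes) and 0.64 for Hnrnpm (adjusted p = 0.0689), where 0.185% of all genes were higher, and 8 passed at ZT15 (7.75%). Without it and without the 13, 5 passed at ZT7 (3.16% of all genes), which were Hnrnph1 (0.41), Hnrnpa2b1 (0.52), Hnrnph2 (0.47), Hnrnpm (0.51) and Hnrnph3 (0.31), and 6 at ZT15 (6.76%), while 13 were lower in iMSN-D2RKO at ZT19 (5.68%). The 2 WT libraries kept at ZT19 are saline replicate 3 and cocaine replicate 2, whose score of 22.3 was the highest of those kept. The part of cocaine replicate 2 in the lower calls at ZT19 was not tested. The spiny neuron list summed to 3400 to 5969 FPKM in WT and to 4689 to 15853 FPKM in iMSN-D2RKO libraries at ZT7, and 1 of its 12 genes, the enkephalin precursor Penk, was higher there (1.33, adjusted p = 0.00074) and at ZT15 (1.02, adjusted p = 0.00672). Oligodendrocyte markers summed to 2733 to 6047 and 2576 to 4463 FPKM at ZT7, with 0 of 7 past the threshold and a median difference of -0.60. The part of cell makeup in the genotype difference was not tested.

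**Figure D5:**
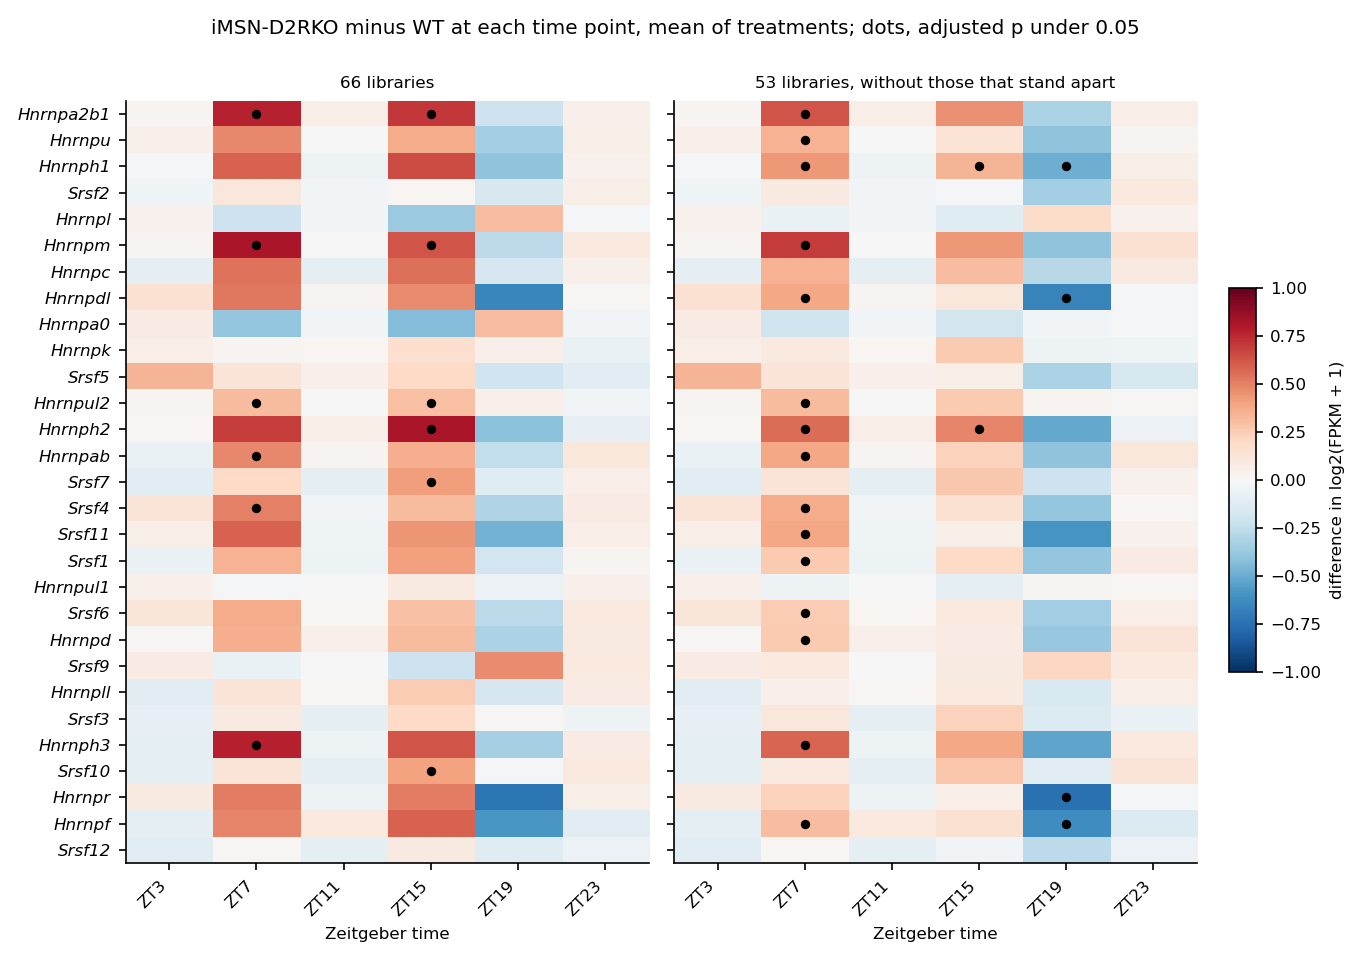
Difference in log2(FPKM + 1), iMSN-D2RKO minus WT, at each zeitgeber time (columns) for 29 genes (rows), averaged over treatments, with 66 libraries (left) and 53 (right); red is higher in iMSN-D2RKO, blue lower, and dots mark an adjusted p under 0.05. On the left, 6 dots stand at ZT7 and 6 at ZT15 and none at the other times.

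Averaged over the day, the genotypes were closer. In saline mice 0 members passed in limma, with 4 at an unadjusted p under 0.05, and in cocaine mice 0, with 1 (0.189% and 0.0487% of all genes were called). Over all genes, 1428 of 14287 in saline and 510 of 14382 in cocaine mice had an unadjusted p under 0.05. Hnrnpm differed by 0.29 and Srsf4 by 0.20 in saline mice (adjusted p = 0.431 for both). With cocaine Hnrnpul2 differed by 0.16 (adjusted p = 1).

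The effect of cocaine was examined over ZT7 to ZT23 and at each of these 5 times in each genotype. Over the 15 libraries per treatment and genotype, 0 members passed in WT and 0 in iMSN-D2RKO mice in limma, with 0 and 0 at an unadjusted p under 0.05, and 0% of all genes were called in either. Member differences lay between -0.12 and 0.17 in WT and between -0.16 and 0.15 in iMSN-D2RKO mice. The 95% interval of Hnrnpk in WT mice was -0.24 to 0.00. The difference between genotypes in the cocaine effect gave 0 members, with 0 at an unadjusted p under 0.05, and was 0.17 for Hnrnpk (p unadjusted 0.0502 in limma, adjusted p = 1).

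At single times 0 members passed in any of 10 comparisons in limma, with 3 at an unadjusted p under 0.05 in WT mice at ZT15, 2 in iMSN-D2RKO mice at ZT7, 7 at ZT19 and 0 in the other 7. Of 14643 genes, 994, 3346 and 2340 had an unadjusted p under 0.05 in WT at ZT15 and in iMSN-D2RKO at ZT7 and ZT19. At most 0.0205% of all genes were called at any of these times (WT at ZT19, all lower), and 0.0137% in iMSN-D2RKO mice at ZT7, all lower. Srsf3 at ZT15 in WT mice had 26.9, 25.9 and 27.4 FPKM with saline and 24.7, 22.9 and 9.95 FPKM with cocaine. The groups did not overlap, the third cocaine library was by far the lowest, and the difference was -0.56 (adjusted p = 0.301). Hnrnpll, a relative of hnRNP L known from lymphocyte splicing, had 11.3, 19.6 and 26.2 FPKM with saline and 27.4, 36.3 and 25.6 FPKM with cocaine at ZT7 in iMSN-D2RKO mice, with overlap and a difference of 0.68 (adjusted p = 0.114). The low saline library is the one with the highest total. Hnrnpr at ZT19 in iMSN-D2RKO mice had 29.8, 9.13 and 27.6 FPKM with saline and 9.34, 10.1 and 7.99 FPKM with cocaine. The high saline pair are libraries that stand apart. The difference was -1.04 (adjusted p = 0.304), and -0.00 without them. In WT mice at ZT19, 12 members passed without the 13 libraries (10.5% of all genes), a comparison of 1 library with 1.

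Other genes of the splicing pathway were taken from lists named for their role. From ZT23 to ZT3, 1814 of 14643 genes fell and 835 rose. At this step 3 of 8 SR protein kinases tested fell, among them Clk1 (-0.76, adjusted p = 0.000422), Prpf4b (-0.80) and Clk4 (-0.47). Of 16 SR-related coactivators 8 fell, led by Acin1 (-0.57), Rnps1 (-0.43) and Pnisr (-0.87). Of 39 core spliceosome genes 13 fell and of 45 other RNA-binding splicing regulators 17 fell, led by Ddx23 (-0.50) and Taf15 (-0.67, adjusted p = 0.000263). Of 10 nonsense-mediated decay factors 3 fell, which were Upf3a (-1.09, adjusted p = 0.000347), Upf2 (-0.92) and Upf3b (-1.43). None of 3 transportins, which carry SR proteins and hnRNPs into the nucleus, and none of 6 nuclear long noncoding RNAs passed, and none of these 7 lists had a gene that rose. Medians ran from -0.13 for the noncoding RNAs to -0.40 for the coactivators, beside -0.39 for the members and -0.05 for all genes. Without the 13 libraries the counts that fell were 3, 7, 11, 11 and 3 in the same order, and 2 core spliceosome genes rose. In that setting 1134 of 14438 genes fell and 414 rose. Oligodendrocyte markers moved the opposite way at this step, with 3 of 7 higher (Cldn11, Mag and Cnp) and a median of 0.70, and 0 of 7 without the 13.

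In iMSN-D2RKO mice at ZT7, 10 of 39 core spliceosome genes were higher than in WT, where 4.23% of all genes were, among them Sf3a3 (0.65, adjusted p = 0.00923), Prpf6 (0.57) and Sf3b2 (0.41), and 6 of 45 other regulators, led by Taf15 (0.64, adjusted p = 0.00592) and Rbm17 (0.94). At ZT15 these counts were 7 of 39 and 5 of 45, where 4.59% of all genes were higher, with 2 of the latter list lower. Clk3 (0.48, adjusted p = 0.0374) was the kinase past the threshold at ZT7, and 0 of 8 were at ZT15. Upf3a was higher at both times (1.04 and 0.80). Without the library of 690048 FPKM, 0 of 39 core genes, 0 of 45 other regulators and 0 of 8 kinases passed at ZT7 in limma, with 13, 10 and 4 at an unadjusted p under 0.05. Of 14578 genes, 27 were higher there and 2014 had an unadjusted p under 0.05. At ZT15, 11 of 39, 7 of 45 and 1 of 8 were higher, beside 1130 of 14578 genes. When the 13 libraries were left out, 9 of 39 core genes and 12 of 45 other regulators were higher at ZT7, and 0 and 2 at ZT15, where 2 core genes were lower. Of 14438 genes, 996 were then higher at ZT7, and 207 were higher and 97 lower at ZT15. Without both the 13 and the library of 690048 FPKM, 1 of 39 and 6 of 45 were higher at ZT7 and 7 and 6 at ZT15, beside 453 and 970 of 14356 genes. These lists share their libraries with the comparisons above.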

How the data were processed

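Gene expression was measured by RNA sequencing of polyadenylated RNA in ventral striatum punches. Per the study's methods, the authors aligned single-end reads with TopHat and Bowtie2 to the UCSC mm10 genome and normalized with Cufflinks tools, and the submitters' processing notes name CASAVA 1.8.2, Bowtie, Cuffnorm and mm10. The deposited values are FPKM per gene, normalized by the authors, in 72 columns, of which 6 repeat the ZT3 libraries under both treatments, so 66 libraries were used. FPKM hold no read counts, so depth per gene is unknown. A relative depth of 0.499 to 1.71 was estimated from the steps of 1439 rare genes, but only 31.8% of values lay within 5% of a step, so no count test was run.

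Genes with 1 FPKM or more in at least 1 library were tested with limma 3.58.1 (R 4.3.3) on log2(FPKM + 1), which understates changes of low genes. The 22 groups were fitted together, p-values were adjusted by Benjamini-Hochberg over all genes tested within each comparison, and an adjusted p under 0.05 was called. Rhythms were tested with a reimplementation of JTK_CYCLE in Python 3.11.15 (periods of 20 and 24 h, p under 0.01, after a Dixon test for outlying libraries). Its p comes from the exact null of the statistic, with Bonferroni adjustment over pairs of period and phase. The window stated by the study also held longer periods. Both limma and JTK_CYCLE were tested on simulated data. Libraries that stand apart were found from the first axis of within-group variation over genes that are not members. Any member could be named, with full values for those past a threshold or with the smallest p in a comparison, and up to 3 genes of each other list by p. The members and the lists were chosen with earlier results of these data known. The comparisons of consecutive times and of genotypes at single times, and the settings leaving out ZT19 with the 13 libraries or the library of the highest total, were chosen after seeing the data. Other settings changed the pseudocount, filter, scaling, outlier treatment, replicate block and single replicates. Promoter windows came from RefSeq (GRCm38.p6).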

Additional observations from a re-analysis of the deposited data

How the results depend on the processing

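Of 29 members, the count rhythmic in saline WT mice (11) became 2 with Benjamini-Hochberg adjustment, 3 without the 13 libraries that stand apart, 7 with the score of the leading axis removed, 1 without ZT19 and 2 without both. In cocaine WT mice (7) it became 11 at p under 0.05, 1 with adjustment, 0 without the 13, 2 without ZT19, 2 without both and 13 with a cosinor F test. In saline iMSN-D2RKO mice (0) it became 3 at p under 0.05 and 1 without the 13, with the score removed, with totals scaled alike, and without the 13 and ZT19. In cocaine iMSN-D2RKO mice (1) it became 2 at p under 0.05, 3 with the score removed, and 0 with no Dixon test, with adjustment, without ZT19, with totals scaled alike, without the 13 and ZT19, and with a cosinor F test. The dark to light count in saline WT mice (7) became 4 with no filter, 25 with array weights, 0 without the 13, 0 without ZT19, 3 with totals scaled alike, 4 with median ratio scaling, 0 without the 13 and ZT19, and 4 without the 13 and the library of the highest total. In cocaine WT mice (12) it became 24 with array weights, 7 with the score removed, 0 without ZT19 and 0 without the 13 and ZT19. In saline iMSN-D2RKO mice (17) it became 0 without the 13, 2 with the score removed, 0 without ZT19, 0 without both and 4 without the 13 and the highest total. In cocaine iMSN-D2RKO mice (0) it became 18 with array weights, 2 without the 13, 4 with the score removed, 1 with totals scaled alike, 1 without the highest total and 6 without the 13 and the highest total. The mean genotype difference with saline (0) became 1 with the score removed, the cocaine calls summed over single times (0) became 56 with array weights, 12 without the 13, 2 with totals scaled alike and 16 without the 13 and the highest total, the genotype difference in the cocaine effect (0) became 4 and the rhythm differences (0) became 38 with array weights. The consecutive-time calls (34 in all) became 124 with array weights and 57 without the 13 and the highest total. The single-time genotype calls (12 in all) became 55 with array weights, 21 without the 13, 24 with the score removed, 6 with totals scaled alike, 7 with median ratio scaling and 24 without the 13 and the highest total. The array weights did not fully converge, and the cause of these changes was not tested. These are counts of members without the share of all genes, so a change need not be particular to the members. Calls over all genes moved too. Dark to light in saline WT mice they were 403 of 14643, 15 of 14438 without the 13 and 578 of 14538 with the score removed. Rhythmic genes there were 1367 of 13940, and 877 of 13636 without the 13. Steps and cocaine effects at ZT19 gave no value without ZT19.

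Leaving out 1 replicate number at a time gave 1 to 3, 1 to 4, 0 to 1 and 0 to 0 rhythmic members in the same 4 series, 0 to 8, 0 to 11, 0 to 12 and 0 to 0 dark to light calls, 0 to 2 cocaine calls at single times, 5 to 27 consecutive-time calls and 1 to 9 single-time genotype calls, and 0 to 0 for the cocaine and genotype means, the cocaine effect and the rhythm differences. These too are counts of members without the share of all genes, so a change need not be particular to the members. Some differences changed sign. Hnrnpll dark to light in saline iMSN-D2RKO mice became -0.02 without the 13 and the highest total, and Hnrnpf there -0.01 without the 13 and ZT19. For cocaine, Hnrnpab over iMSN-D2RKO times became 0.00 with array weights and Hnrnpdl at ZT19 in iMSN-D2RKO 0.02 without the 13, with or without the highest total. Genotype at ZT23 became 0.00 for Srsf5 with array weights. With each replicate number left out in turn, the cocaine difference ran from -0.05 to 0.36 for Srsf11 over WT times, from -0.01 to 0.48 for Srsf10 and from -0.06 to 0.39 for Srsf7 in WT at ZT23, and in iMSN-D2RKO from -0.21 to 0.02 for Srsf3 and from -0.15 to 0.03 for Srsf7 at ZT11, from -0.01 to 0.39 for Srsf10 at ZT15, and from -0.01 to 0.36 for Srsf12 and from -0.76 to 0.05 for Hnrnph3 at ZT23.

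Replicate numbers did not pair libraries: deviations of libraries with the same number had a median correlation of -0.00269 over 693 pairs (0.00322 for other numbers), with 205 over 0.1. With the replicate block the dark to light counts were 6, 12, 17 and 0, the consecutive-time calls 33 and the single-time genotype calls 12. The cosinor F test with the replicate block gave 17, 11, 0 and 0 rhythmic members. The share of all genes is not given beside these counts.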
